A study of Homo sapiens with 6 samples.

Results

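TRIM28 silencing in T24 cells did not move the DNA replication genes as a block. The set described here holds 47 genes of the replication machinery, chosen by symbol from textbook roles out of 78932 genes in the count table. This set and the lists compared with it were chosen with earlier results of these data known. Of the 47, 13 fell (27.7%), 11 rose (23.4%) and 23 did not pass the test in siTRIM28 cells. Of all genes tested, 20.5% fell and 21.3% rose. The genes of the polymerase alpha catalytic subunit (POLA1) and of the small subunit of ribonucleotide reductase (RRM2) fell most, to 39.4% and 47.1% of their siNC level. The licensing factor gene CDT1 rose most, to 155%.

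T24 is an established human urothelial carcinoma line from bladder. All libraries came from T24 cells transfected with either a control siRNA (siNC, 3 libraries) or an siRNA against TRIM28 (siTRIM28, 3 libraries), without any further agent. Both groups shared the transfection reagent and the culture medium with serum. Poly(A) RNA was sequenced from each culture, the labels call the 3 libraries of a group biological replicates, and all 6 carry the same batch number. Since nothing further is said of the cultures, p-values measure the spread between these libraries. Neither the siRNA used against TRIM28 in these libraries nor the time after transfection is given in the sources used here. TRIM28 encodes a chromatin corepressor that also acts as a SUMO E3 ligase.

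Before a cell enters S phase, the origin recognition complex, CDC6 and CDT1 load the ring-shaped MCM2-7 helicase onto origins, and geminin (GMNN) blocks CDT1 afterwards. The CDC7-DBF4 kinase, CDC45 and the GINS complex then turn the ring into an active helicase. Polymerase alpha with primase starts each strand, polymerases epsilon and delta extend it, the PCNA clamp loaded by RFC holds the polymerases, RPA coats single strands, and FEN1, DNA2 and LIG1 finish Okazaki fragments. Ribonucleotide reductase makes the deoxynucleotides. Many of these genes are known targets of E2F transcription factors, and proliferating cancer cells such as T24 transcribe nearly all of them.

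Silencing was checked first. TRIM28 (ENSG00000130726, chr19:58544064-58550649, GRCh38) had 1419, 1393 and 1382 reads in the siNC libraries and 130, 96 and 109 in the siTRIM28 libraries, which went with the labels in all 6. Levels are given as CPM, the read count scaled to a fixed library total of 1 M reads, with TMM factors. TRIM28 fell from 104 ± 4.09 CPM (SD, n = 3) to 8.87 ± 0.658, a log2 fold change of -3.54 (SE 0.0723, adjusted p = 1.03e-10). Here and below, adjusted p-values come from the quasi-likelihood F test of edgeR, adjusted over the 18474 genes tested by the Benjamini-Hochberg method, and the threshold was 0.05.

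Library totals ran from 11712623 to 14018052 reads, and the median member had 587 reads in the library where that median was lowest. All 47 members passed the filter on low counts. The siNC replicates 1 and 2, and the siTRIM28 replicates 2 and 3, were close pairs, with a chi-square per gene of 1.08 and 1.24. By the same measure siNC replicate 3 stood apart from its group at 4.54 and 4.61, and siTRIM28 replicate 1 at 7.09 and 6.40. Over 17907 and 17808 genes the close pairs differed slightly more than sampling noise (chi-square p = 1.46e-12 and 1.44e-95). Over the 47 members their chi-square per gene was 1.05 and 1.10. Such a test cannot show whether the libraries of a close pair are separate cultures. All 6 libraries were kept as labelled. With each close pair summed to 1 sample, 8 members were lower and 11 higher, and 5935 genes were called in all. A list of 17 markers held urothelial and epithelial genes and the mesenchymal gene VIM, and 8 passed the filter. The keratins KRT8 and KRT18 were present, CDH1, EPCAM, KRT5, KRT19 and GATA3 were under the filter, and KRT20 and UPK1B had 0 reads. Of the 8, 5 were called higher in siTRIM28 (KRT7, KRT8, TP63, UPK1A and VIM) and none lower, while KRT18, FOXA1 and PPARG were not called. Of all genes tested, 21.3% were higher and 20.5% lower. UPK1A (0.874 to 3.41 CPM) and TP63 (0.469 to 0.966) were at low levels. The list summed to 1306 ± 15.9 CPM in siNC and 1612 ± 51.5 in siTRIM28, of which VIM alone made up 1102 ± 12.0 and 1389 ± 54.9. Of 13 markers of other cell types only CD68 was tested, at 348 ± 2.38 and 351 ± 12.1 CPM, and it was not called.

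The members' called shares were read against all genes tested. Among these, 41.8% passed the threshold, 20.5% lower and 21.3% higher. Of the members, 51.1% passed, 27.7% lower and 23.4% higher. Genes at least as abundant as the least abundant member gave 50.7%, with 26.7% lower and 24% higher. Their cutoff was a mean count of 54.7, while the median member had 587 reads or more in every library. Those genes are therefore not matched to the members in abundance. Past an absolute log2 fold change of 0.58 there were 4 members lower (POLA1, RRM2, MCM2 and MCM6) and 1 higher (CDT1), beside 7.51% and 9.51% of all genes. The 3 siTRIM28 values lay below all siNC values for 16 members and above them for 14, beside 25.7% and 26.3% of all genes (52.0% together), and the groups overlapped for 17 members. The members' median log2 fold change was -0.04, beside 0.02 for all genes tested. Without siTRIM28 replicate 1, 14 members were lower and 13 higher, beside 23.1% and 21.8% of all genes tested in that fit. Without siNC replicate 3 they were 11 and 11, beside 17.6% and 18.1%.

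**Figure D1:**
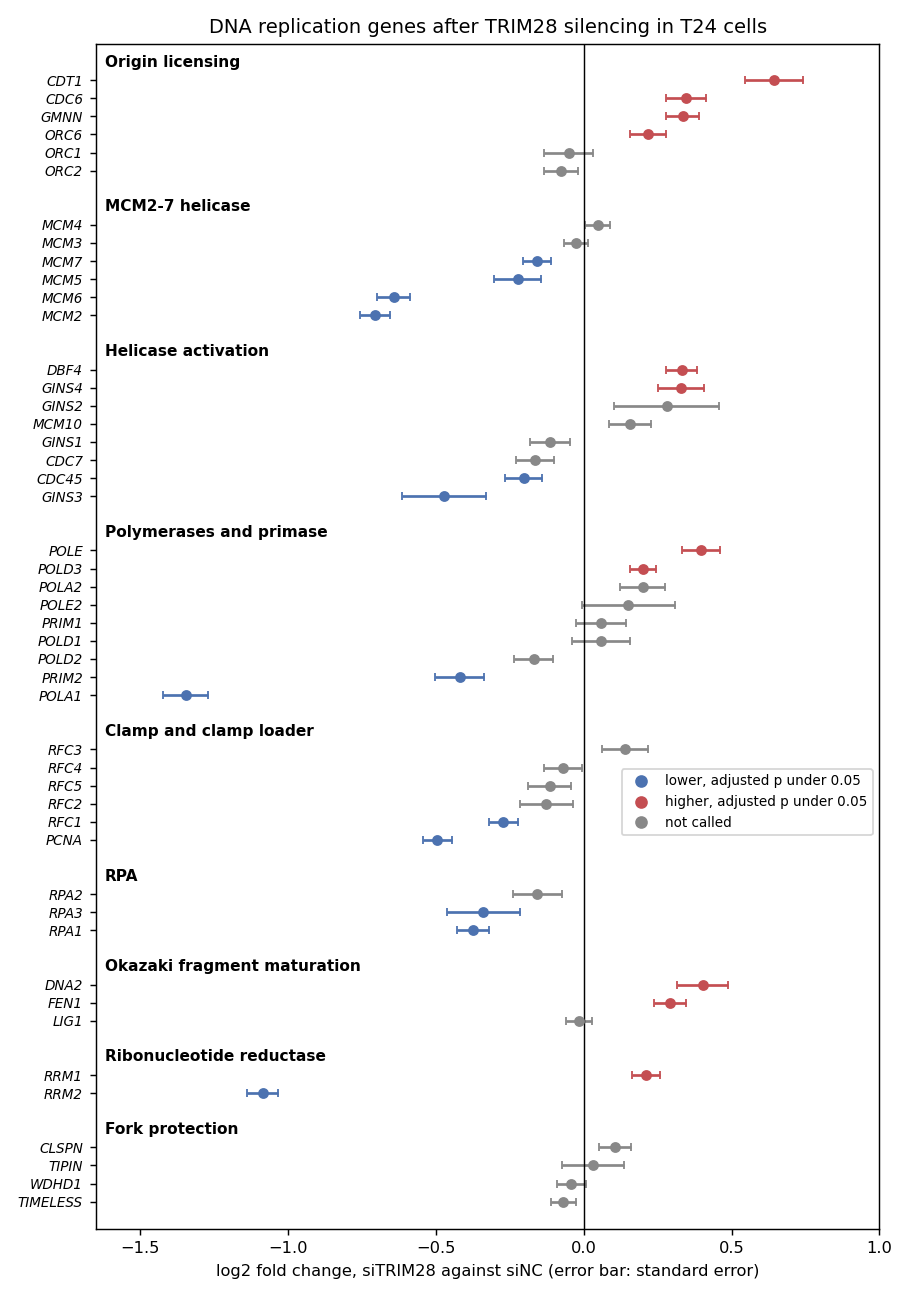
Log2 fold changes (siTRIM28 against siNC, horizontal axis) of the 47 replication genes, grouped by role, with 1 standard error on each side and 3 libraries a group. Blue points were lower and red points higher at adjusted p under 0.05, and grey points were not called. POLA1 at -1.35 and RRM2 at -1.09 lie far to the left, and CDT1 at 0.64 lies farthest right.

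Summed over the 47 genes, the replication transcripts took up 3147, 3160 and 3194 CPM in siNC and 3105, 3054 and 3020 in siTRIM28. The sums did not overlap, and their means were 3167 ± 24.2 and 3060 ± 42.7 CPM. RRM2 (102 to 48.1 CPM), MCM2 (89.0 to 54.6) and POLA1 (50.6 to 19.9) together lost more than the whole sum did. The sum nets losses against gains, so this does not show that the fall was confined to these genes. Among the other members, MCM7 went from 236 to 212 CPM and RRM1 from 236 to 273. In the whole set, 13 members were called lower and 11 higher. In RNA of a whole culture, a smaller share of cells in a cell cycle phase and less RNA per cell cannot be told apart.

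The promoters were looked at next, because E2F sites are the best known sequence feature of this set. RefSeq promoters (GRCh38.p14, 250 bases before to 50 after the annotated start) were found for 40 of the 47 members. The E2F words searched were TTTCCCGC, TTTCGCGC, TTTGCCGC and TTTGGCGC, on both strands. They occurred in 17 of the 40 member promoters (42.5%) and in 3.33% of all 27305 promoters. The stretches printed here are the 160 bases before the start, 5′ to 3′ along the gene, and capitals mark the E2F words on either strand. They are shown because genes that fell (POLA1, MCM6, PCNA), genes that rose (CDT1, POLE) and a gene that was not called (LIG1) all hold such a word. POLA1 is at chrX:24693758-24693917 on the plus strand, MCM6 at chr2:135876444-135876603 on the minus strand and PCNA at chr20:5126623-5126782 on the minus strand. CDT1 is at chr16:88803629-88803788 on the plus strand, POLE at chr12:132687343-132687502 and LIG1 at chr19:48170345-48170504, both on the minus strand.
POLA1: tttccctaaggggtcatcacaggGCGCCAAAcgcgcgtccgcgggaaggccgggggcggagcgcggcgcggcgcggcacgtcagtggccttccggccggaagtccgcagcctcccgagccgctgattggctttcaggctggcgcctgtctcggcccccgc
MCM6: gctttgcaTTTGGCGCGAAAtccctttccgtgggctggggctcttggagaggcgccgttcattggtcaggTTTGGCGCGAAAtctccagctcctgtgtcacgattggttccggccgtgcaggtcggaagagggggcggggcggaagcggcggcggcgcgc
PCNA: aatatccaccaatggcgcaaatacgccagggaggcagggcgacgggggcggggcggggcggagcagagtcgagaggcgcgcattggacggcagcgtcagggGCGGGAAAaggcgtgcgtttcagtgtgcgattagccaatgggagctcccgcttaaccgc
CDT1: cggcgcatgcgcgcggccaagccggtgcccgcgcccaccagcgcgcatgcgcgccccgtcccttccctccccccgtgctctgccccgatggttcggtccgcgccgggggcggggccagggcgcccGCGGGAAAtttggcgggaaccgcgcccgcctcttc
POLE: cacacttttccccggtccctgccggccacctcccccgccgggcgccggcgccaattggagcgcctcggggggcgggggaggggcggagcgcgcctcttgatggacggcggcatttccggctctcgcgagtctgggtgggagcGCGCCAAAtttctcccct
LIG1: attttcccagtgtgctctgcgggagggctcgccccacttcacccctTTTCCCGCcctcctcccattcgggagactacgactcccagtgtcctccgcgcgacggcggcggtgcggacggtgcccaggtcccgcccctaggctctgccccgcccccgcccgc

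In MCM6 the capitals cover a forward TTTGGCGC that shares letters with a reverse TTTCGCGC, at each of 2 places. By call, the E2F words were found in 6 of 11 promoters of genes that fell, 3 of 8 of genes that rose and 8 of 21 of genes not called. RRM2 had a promoter in the table and no E2F word in it. The CCAAT box occurred in 24 of 40 member promoters (60.0%) and in 35.7% of all promoters, with 8 of 11, 4 of 8 and 12 of 21 in the same order. The CHR word TTTGAA, known from genes of late cell cycle phases, occurred in 2 of 40 (5.0%), those of DBF4 and RRM1, and in 15.4% of all promoters. These are matches of letters, which say nothing of binding.

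Origin licensing genes were higher or not called. Of 6, 4 rose (CDT1, CDC6, GMNN and ORC6), none fell, and the median log2 fold change was 0.28. The share higher was 66.7%, beside 21.3% of all genes tested. The 3 Okazaki fragment genes had the same share higher, none lower and a median of 0.29. CDT1 (ENSG00000167513, chr16:88803789-88809258), which brings the helicase to origins, had 10.6, 9.03 and 11.2 CPM in siNC and 17.4, 15.3 and 15.3 in siTRIM28. Every siTRIM28 library lay above every siNC library. The log2 fold change was 0.64 (SE 0.0977, adjusted p = 0.000266). It was 0.554 without siNC replicate 2 and 0.577 without siTRIM28 replicate 1, both under the second threshold, so that no member was then higher past it. Its inhibitor geminin (GMNN) also rose, from 65.4 ± 0.796 to 82.5 ± 4.92 CPM (log2 fold change 0.34, SE 0.0559, adjusted p = 0.000517).

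CDC6, the ATPase that works with the origin recognition complex, rose from 59.3 ± 0.0636 to 75.3 ± 7.28 CPM (adjusted p = 0.00159, log2 fold change 0.35). Among subunits of the origin recognition complex, ORC6 rose slightly, from 52.9 ± 2.36 to 61.4 ± 3.22 CPM (adjusted p = 0.0139, log2 fold change 0.22), and without siNC replicate 1 its adjusted p was 0.0788. ORC2 had the lowest log2 fold change of the group, with levels of 61.3, 59.0 and 60.6 CPM in siNC and 59.1, 58.5 and 53.9 in siTRIM28. Its groups overlapped and it was not called (log2 fold change -0.08, adjusted p = 0.309). ORC1 was not called either, at -0.05. The summed level of the 6 licensing genes was 263 ± 1.55 CPM in siNC and 307 ± 19.3 in siTRIM28, without overlap.

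The helicase ring itself was uneven. The 6 MCM2-7 proteins form a single ring, yet 4 of their genes fell, none rose, and MCM3 and MCM4 were not called. The share lower was 66.7%, beside 20.5% of all genes tested. MCM2 (ENSG00000073111, chr3:127598223-127621829) had 85.7, 91.7 and 89.5 CPM in siNC and 54.1, 55.1 and 54.6 in siTRIM28. The siTRIM28 values were tight and far below the siNC values, at 61.4% of the siNC mean (log2 fold change -0.70, SE 0.0508, adjusted p = 8.07e-07). MCM6 (ENSG00000076003, chr2:135839626-135876443) had 63.5, 62.8 and 65.9 CPM in siNC and 41.3, 42.1 and 39.7 in siTRIM28. It fell to 64.0% (log2 fold change -0.64, SE 0.0564, adjusted p = 3.7e-06).

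MCM4 had the highest log2 fold change of the ring genes, with levels of 130, 134 and 135 CPM in siNC and 133, 140 and 139 in siTRIM28. Its groups overlapped (log2 fold change 0.05, SE 0.0435, adjusted p = 0.42). MCM3 stayed at 230 ± 7.66 and 226 ± 2.77 CPM, a log2 fold change of -0.02 (SE 0.0408, adjusted p = 0.665). MCM5 and MCM7 fell by less. MCM7 had a log2 fold change of -0.16 (adjusted p = 0.0179), and its adjusted p was 0.0561, 0.0549 and 0.0592 without siNC replicate 2, siNC replicate 3 or siTRIM28 replicate 3. The MCM7 call was also lost with the close pairs summed (adjusted p = 0.165). MCM5 had a log2 fold change of -0.22 (adjusted p = 0.0427). Its adjusted p was 0.0841, 0.135, 0.0700 and 0.0790 without siNC replicate 1, 2 or 3 or siTRIM28 replicate 1. The MCM5 call was also lost with DESeq2, with total-count or upper-quartile scaling and with the close pairs summed. Without siTRIM28 replicate 1 its log2 fold change was -0.12, and that library held the lowest MCM5 level, 46.99 CPM.

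Levels of different genes were compared per kilobase of the gene length in the deposited table. On this scale MCM3 and MCM7 led the ring genes in siNC, at 63.1 ± 2.10 and 47.7 ± 0.249 CPM per kilobase, ahead of MCM2 at 18.1 ± 0.609, MCM6 at 15.5 ± 0.394, MCM4 at 13.5 ± 0.260 and MCM5 at 8.75 ± 0.263. In siTRIM28, MCM2 stood at 11.1 ± 0.0952 and MCM6 at 9.92 ± 0.300 CPM per kilobase, both below MCM4 at 14.0 ± 0.408. MCM2 and MCM6 were above MCM4 in all siNC libraries and below it in all siTRIM28 libraries. These orders rest on the deposited lengths, whose annotation release is not given in the sources used here.

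**Figure D2:**
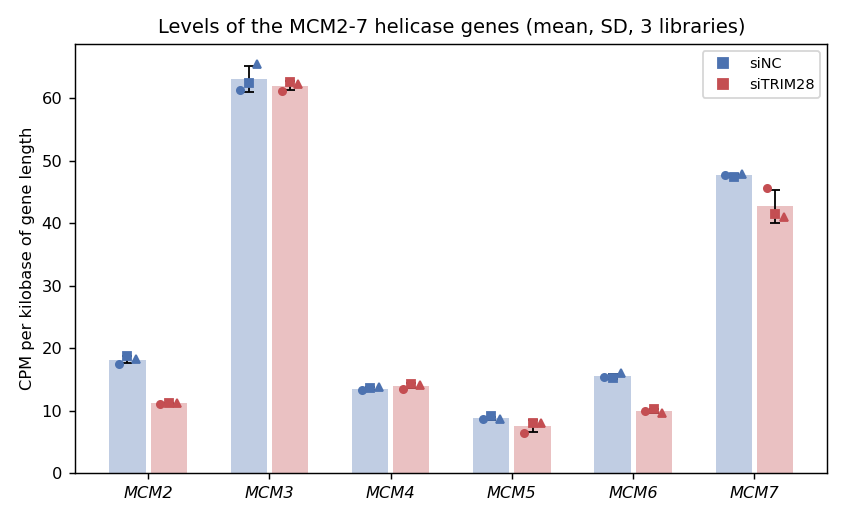
Levels of the 6 ring genes in CPM per kilobase of gene length (vertical axis), with bars for the mean of 3 libraries, error bars for 1 SD, and circles, squares and triangles for replicates 1, 2 and 3. MCM2 went from 18.1 to 11.1 and MCM6 from 15.5 to 9.92, while MCM3 was at 63.1 and 62.0.

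Genes that switch the loaded ring on went both ways. Of 8, 2 rose (DBF4 and GINS4), 2 fell (GINS3 and CDC45), and 4 were not called, with a median log2 fold change of 0.02. These shares, 25% each way, were near the 21.3% higher and 20.5% lower of all genes tested. DBF4, the regulatory subunit of the CDC7 kinase, had 80.3, 86.5 and 79.1 CPM in siNC and 102, 102 and 106 in siTRIM28. It rose to 126% of siNC (log2 fold change 0.33, SE 0.0509, adjusted p = 0.00029). The kinase gene CDC7 had 34.3, 33.7 and 31.0 CPM in siNC and 28.8, 30.1 and 29.7 in siTRIM28. All its siTRIM28 values were the lower ones, but it missed the threshold (log2 fold change -0.16, adjusted p = 0.0614), which it passed only without siNC replicate 3 (adjusted p = 0.0362) in the alternatives tried.

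The GINS complex joins the ring as a unit of 4 proteins, and its genes spread from -0.47 to 0.33. GINS3 had 7.13, 5.99 and 6.51 CPM in siNC and 5.21, 4.22 and 4.64 in siTRIM28. It fell, at under 10 CPM, with a log2 fold change of -0.47 (SE 0.143, adjusted p = 0.0195). The GINS3 call was lost without siNC replicate 1 (adjusted p = 0.0693) or siTRIM28 replicate 2 (0.0654). It was also lost with DESeq2 (0.0643) and with the close pairs summed (0.0595). GINS4 rose from 20.4 ± 1.23 to 25.6 ± 2.04 CPM (adjusted p = 0.00539, log2 fold change 0.33). GINS1 at -0.11 and GINS2 at 0.28 were not called, and GINS2 was the least abundant member, with 3.82 ± 0.654 CPM in siNC. CDC45 fell from 55.1 ± 3.26 to 47.9 ± 1.93 CPM (adjusted p = 0.0233, log2 fold change -0.20). Its adjusted p was 0.0856, 0.0720 and 0.0814 without siNC replicate 2, siNC replicate 3 or siTRIM28 replicate 3. The CDC45 call was also lost with DESeq2 and with the close pairs summed. MCM10, which helps the helicase start, was not called (log2 fold change 0.16, adjusted p = 0.0976), and passed without siTRIM28 replicate 2 (adjusted p = 0.0491).

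POLA1 fell further than any other member. This gene (ENSG00000101868, chrX:24693873-24996986) encodes the catalytic subunit of polymerase alpha, which extends the RNA primer with the first DNA bases. It had 50.7, 49.8 and 51.2 CPM in siNC and 17.9, 22.0 and 19.9 in siTRIM28. Every siTRIM28 library lay far below every siNC library. The log2 fold change was -1.35 (SE 0.0763, adjusted p = 1.24e-07), and it ran from -1.43 to -1.27 when each library was left out in turn.

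The partners of POLA1 in the same complex did not fall alike. POLA2, the accessory subunit, was at 18.8 ± 1.23 and 21.6 ± 1.34 CPM, and missed the threshold (adjusted p = 0.0538, log2 fold change 0.20). It passed the threshold without siNC replicate 2 (adjusted p = 0.0425) or siTRIM28 replicate 1 (0.00737). POLA2 shares 2012 of its 5726 exon bases with another gene on the same strand in GENCODE v29, so its reads may be split between them. Its deposited length is 12006 bases, so the model that was counted differs from that of GENCODE v29. PRIM1, the catalytic primase subunit, was not called (log2 fold change 0.06, adjusted p = 0.614). PRIM2, the large primase subunit, fell from 19.2 ± 1.15 to 14.4 ± 1.28 CPM (log2 fold change -0.42, SE 0.083, adjusted p = 0.00167).

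The polymerases of the elongating fork were higher or not called. POLE, the catalytic subunit of polymerase epsilon, had 43.4, 41.4 and 44.6 CPM in siNC and 54.6, 60.4 and 55.5 in siTRIM28. It rose in every library of the group (log2 fold change 0.40, SE 0.0629, adjusted p = 0.000361). POLD3, an accessory subunit of polymerase delta, rose from 97.4 ± 1.90 to 112 ± 1.02 CPM (adjusted p = 0.0032, log2 fold change 0.20). The catalytic subunit gene POLD1, picked out after its values were seen, had 90.6, 87.0 and 86.6 CPM in siNC and 110, 79.7 and 84.4 in siTRIM28. It was not called (log2 fold change 0.06, adjusted p = 0.678), and siTRIM28 replicate 1 alone lay above siNC, so that without it the log2 fold change was -0.10. POLD2 at -0.17 and POLE2 at 0.15 were not called, although POLD2 passed without siNC replicate 2 (adjusted p = 0.0427) or siTRIM28 replicate 3 (0.0444). Over the 9 polymerase and primase genes, 2 fell and 2 rose (22.2% each), near the 20.5% and 21.3% of all genes tested. Their summed levels overlapped between the groups, at 392 ± 2.74 and 388 ± 6.64 CPM.

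**Figure D3:**
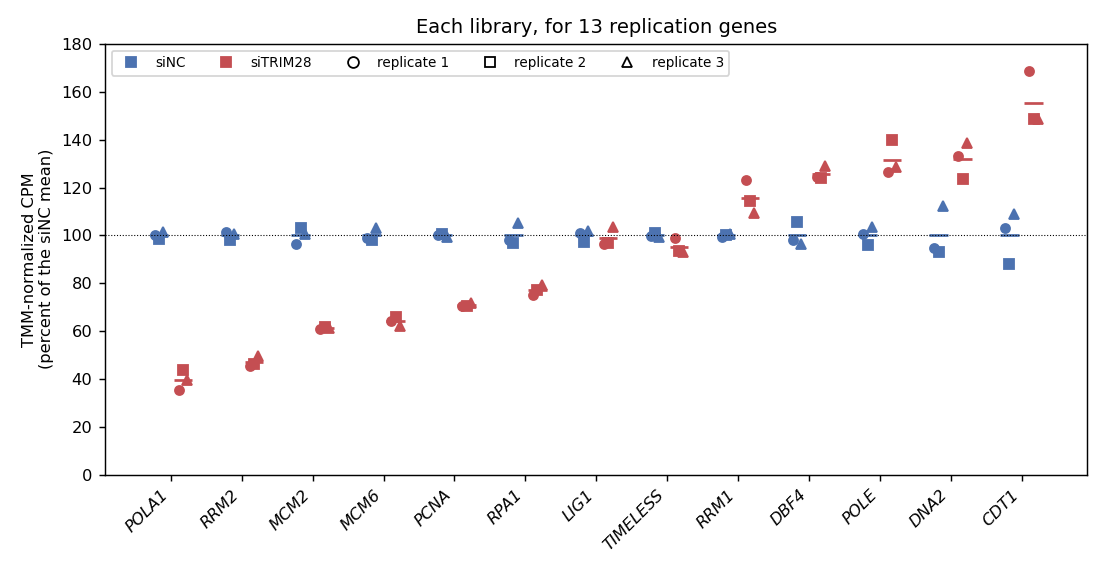
Level of 13 replication genes in each library as a percent of the gene's mean siNC level (vertical axis), with circles, squares and triangles for replicates 1, 2 and 3 and a short line for each mean. POLA1 lies at 39.4% and RRM2 at 47.1% of siNC, LIG1 and TIMELESS at 98.9% and 95.3%, and CDT1 at 155%.

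Of the 6 genes of the sliding clamp and its loader, PCNA and RFC1 fell, none rose and the median log2 fold change was -0.12. The share lower was 33.3%, beside 20.5% of all genes tested and 26.7% of genes at least as abundant as the least abundant member. PCNA had 73.1, 73.5 and 72.6 CPM in siNC and 51.6, 51.6 and 52.4 in siTRIM28. Both groups varied by less than 1 CPM, and PCNA fell to 71.0% (log2 fold change -0.49, SE 0.050, adjusted p = 1.17e-05). RFC1, the large subunit of the clamp loader, fell from 120 ± 5.0 to 99.0 ± 3.15 CPM (adjusted p = 0.00092, log2 fold change -0.27). The small subunits RFC2, RFC3, RFC4 and RFC5 were not called and ran from -0.13 to 0.14. RFC3, highest of them in log2 fold change, had 13.6, 13.1 and 12.6 CPM in siNC and 13.8, 15.3 and 14.4 in siTRIM28 (adjusted p = 0.198). Without siTRIM28 replicate 1, RFC2 passed the threshold (log2 fold change -0.24, adjusted p = 0.00757). The 6 genes summed to 314 ± 4.92 CPM in siNC and 266 ± 1.43 in siTRIM28.

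The subunits of RPA, the single-strand binding protein, had log2 fold changes from -0.37 to -0.16. RPA1, the large subunit, had 77.4, 76.6 and 83.0 CPM in siNC and 59.3, 61.1 and 62.7 in siTRIM28. It fell without overlap (log2 fold change -0.37, SE 0.0543, adjusted p = 0.000195). RPA2 had 22.4, 25.9 and 26.6 CPM in siNC and 21.1, 24 and 22.1 in siTRIM28, which overlapped (log2 fold change -0.16, adjusted p = 0.151). It passed only without siNC replicate 1 (adjusted p = 0.0487). RPA3 fell on the test (log2 fold change -0.34, adjusted p = 0.0463), but its groups overlapped. The call was lost without siNC replicate 1 (adjusted p = 0.170), siNC replicate 2 (0.144), siTRIM28 replicate 2 (0.138) or siTRIM28 replicate 3 (0.0957). It was also lost with DESeq2, limma-voom, total-count or upper-quartile scaling, and with the close pairs summed.

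Of the 3 Okazaki fragment genes, FEN1 and DNA2 rose and LIG1 was not called. FEN1, the flap nuclease that works on PCNA, rose from 63.9 ± 2.84 to 78.3 ± 2.41 CPM (log2 fold change 0.29, SE 0.0545, adjusted p = 0.00111). DNA2, a nuclease and helicase for long flaps, had 15.5, 15.2 and 18.3 CPM in siNC and 21.8, 20.2 and 22.6 in siTRIM28. It rose without overlap (log2 fold change 0.40, SE 0.0850, adjusted p = 0.00256). LIG1, the ligase that seals the fragments, had 158, 152 and 159 CPM in siNC and 151, 151 and 161 in siTRIM28. Its groups lay over each other (log2 fold change -0.02, SE 0.0448, adjusted p = 0.799).

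The subunits of ribonucleotide reductase parted. RRM2 (ENSG00000171848, chr2:10120698-10211725), the subunit whose level is known to follow S phase, had 104, 100 and 103 CPM in siNC and 46.6, 47.3 and 50.6 in siTRIM28. It fell to 47.1% (log2 fold change -1.09, SE 0.0527, adjusted p = 4.08e-08), and leaving out each library in turn gave -1.13 to -1.06. RRM1, the large subunit, had 234, 236 and 238 CPM in siNC and 291, 270 and 258 in siTRIM28. It rose to 116% (log2 fold change 0.21, SE 0.0469, adjusted p = 0.0037).

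Fork protection genes were the group with no call. TIMELESS, a partner of TIPIN at moving forks, had 158, 160 and 158 CPM in siNC and 157, 149 and 148 in siTRIM28 (log2 fold change -0.07, adjusted p = 0.212). CLSPN, the checkpoint adaptor claspin, had 132, 136 and 146 CPM in siNC and 140, 157 and 150 in siTRIM28 (log2 fold change 0.11, adjusted p = 0.139). TIPIN at 0.03 and WDHD1 at -0.04 lay between them. Without siTRIM28 replicate 1, TIMELESS was called lower (adjusted p = 0.0317) and CLSPN higher (0.00747), with log2 fold changes of -0.10 and 0.15.

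Partners that act together were set against each other inside each library, a ratio of read counts that does not depend on library scaling. The 10 pairs were chosen after the values were seen, so the ratios are a description. RRM2 per RRM1 read was 0.442, 0.424 and 0.432 in siNC and 0.160, 0.175 and 0.196 in siTRIM28. POLA1 per POLA2 read was 2.87, 2.48 and 2.76 in siNC and 0.883, 0.963 and 0.918 in siTRIM28. POLA1 thus had more reads than POLA2 in each siNC library and fewer in each siTRIM28 library. The MCM2 to MCM3 ratio was 0.383, 0.402 and 0.375 in siNC and 0.243, 0.241 and 0.240 in siTRIM28. PCNA per FEN1 read was 1.10, 1.21 and 1.12 in siNC and 0.661, 0.638 and 0.689 in siTRIM28. DBF4 per CDC7 read was 2.34, 2.57 and 2.55 in siNC and 3.55, 3.38 and 3.55 in siTRIM28. CDT1 against its inhibitor GMNN was 0.164, 0.138 and 0.169 in siNC and 0.200, 0.183 and 0.198 in siTRIM28, a shift of 0.31 on the log2 scale.

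**Figure D4:**
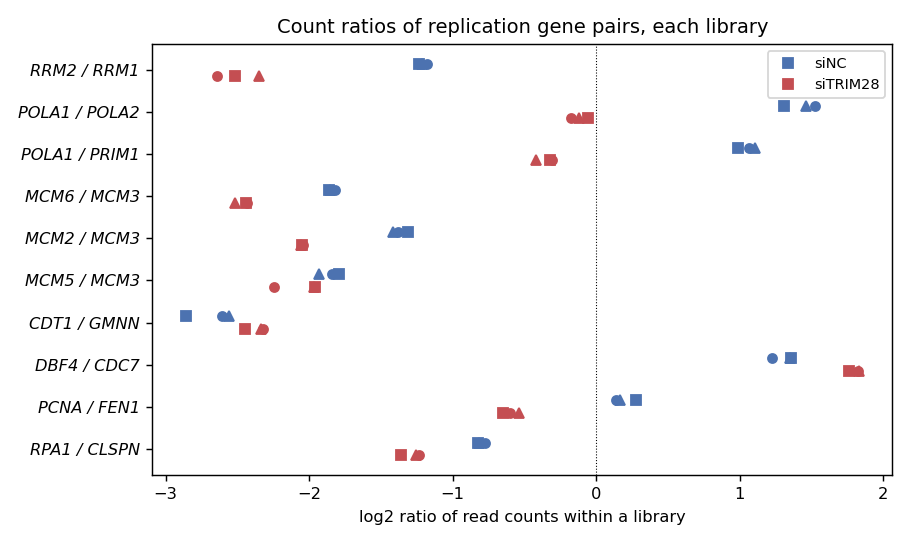
Log2 ratio of read counts (horizontal axis) for 10 pairs of replication genes in each library, with circles, squares and triangles for replicates 1, 2 and 3. The siNC and siTRIM28 points of each pair are apart, with shifts from -1.55 for POLA1 against POLA2 to 0.49 for DBF4 against CDC7.

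Further replication genes outside the set were counted from a list of 28. Of these 11 rose (39.3%), 3 fell (10.7%) and 14 were not called, with a median log2 fold change of 0.06. Of all genes tested, 21.3% were higher and 20.5% lower. The highest were ATAD5, which unloads PCNA, at 0.65 (adjusted p = 1.83e-05) and CHTF18, of an alternative clamp loader, at 0.58 (9.67e-05). The lowest called genes were ORC5, an origin recognition subunit, at -0.59 (0.00381) and MCM9 at -0.28 (0.0333).

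Of 12 further genes that supply or clear deoxynucleotides, 6 fell (50%) and 2 rose (16.7%), with a median of -0.18. Among all genes tested the shares were 20.5% lower and 21.3% higher. The list includes RRM2B, the alternative small subunit of ribonucleotide reductase, which was among the 6. DUT, which removes dUTP, was at -0.59 (adjusted p = 1.49e-05) and DCTPP1, a pyrophosphatase of modified dCTP, at -0.52 (0.0179). TK1, thymidine kinase, rose, at 0.20 (0.0309). Of 8 genes that rebuild chromatin behind the fork, 1 fell (12.5%) and 3 rose (37.5%). ASF1B, a histone chaperone, fell to 30.7% of siNC (log2 fold change -1.72, SE 0.201, adjusted p = 3.61e-05), while the maintenance methyltransferase gene DNMT1 and its recruiter UHRF1 rose (0.39 and 0.16).

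Cell cycle lists were set beside the replication genes. Of all genes tested, 21.3% were higher and 20.5% lower. Of 20 genes of the E2F network, 10 rose (50%) and 5 fell (25%), with a median of 0.18. E2F7, a repressor of the family, at 1.14 (adjusted p = 1.87e-07) and the phosphatase gene CDC25A at 1.10 (9.34e-07) were the highest, and E2F3 at -0.50 (4.57e-05) and TFDP2, an E2F partner, at -0.48 (5.91e-05) the lowest. Of 30 mitosis genes, 21 rose (70%) and 6 fell (20%), with a median of 0.33. KIF23 at 0.75 (5.31e-08) and MKI67 at 0.71 (2.1e-07) were the highest, and BIRC5 (survivin) at -1.70 (4.12e-09) and CENPA at -0.98 (0.000108) the lowest. The summed mitosis level went from 5902 ± 85.8 to 7334 ± 213 CPM without overlap, beside the slightly lower sum of the replication genes. Whether a shift in cell cycle phase had a part in these values was not tested.

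Reads shared between genes could touch some members. POLA1, RRM2, MCM6, PCNA and CDT1 share no exon bases with another tested gene in GENCODE v29. MCM2 shares 1113 exon bases with an antisense gene that had 49.2 reads on average, against 942.8 for MCM2. PRIM1 shares 362 of its 2437 exon bases on the same strand with a gene of 14201 reads on average and 33 with NACA, which had 29257, against 323.5 reads for PRIM1. The release behind the counts is not given, and its gene models differ from GENCODE v29 for some members. The deposited lengths of POLA2, LIG1 and PRIM1 were 12006, 11348 and 3309 bases, against 5726, 6576 and 2437 exon bases in GENCODE v29. For MCM2 both were 4902. The overlaps above therefore describe GENCODE v29 and may differ in the models that were counted. A strand setting for the counting is not given in the sources used here, so reads of MCM2 and its antisense gene cannot be told apart.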

How the data were processed

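Poly(A) RNA of T24 cells was sequenced in 3 siNC and 3 siTRIM28 libraries from a stranded kit. The authors deposited raw read counts per gene on GRCh38. The submitters' processing notes name fastp 0.23.1, STAR 2.7.6a and featureCounts; the annotation release, the strand setting and the handling of duplicates are not given in the sources used here. A further deposited table holds genes selected by the authors' own comparison, with values per length, and was not used.

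Groups came from the labels. A gene was kept if 3 or more libraries held 10 or more counts of it, which left 18474 genes. After TMM scaling, siTRIM28 was compared with siNC in edgeR 4.0.16 (glmQLFit, glmQLFTest, no covariate) under R 4.3.3, with Benjamini-Hochberg adjustment and a threshold of 0.05. The second threshold, 0.58 on the log2 scale, is the one used for the cohorts of the study. A standard error is the absolute log2 fold change over the square root of F. DESeq2 1.42.0, limma 3.58.1 (voom), other scalings, filters, a replicate block and leaving out each library were alternatives. The procedure was tested on simulated counts. Depth limits precision most for members under 10 CPM.

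The members and lists were chosen with earlier results of these data known. Values in every library are given for members past both thresholds and for the highest and lowest member of each role; from other lists, the 2 highest and 2 lowest called genes are named where that many were called. A gene that this rule would name is not reported here. Values of other members are added to account for each, picked after they were seen. Promoters came from RefSeq (GRCh38.p14), with no entry for RPA2, MCM4, RPA3, GINS4, POLD3, MCM5 and DNA2. Figures were drawn with matplotlib 3.10.9 in Python 3.11.15.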

Additional observations from a re-analysis of the deposited data

How the results depend on the processing

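No member changed direction while called under any of the 15 alternatives that refitted the genes. Of the 13 members that fell, 8 (POLA1, RRM2, MCM2, MCM6, PCNA, RPA1, PRIM2 and RFC1) passed in all 15, and of the 11 that rose, 10, all but ORC6. Among the others that fell, RPA3 was lost in 9 alternatives, MCM5 in 8, CDC45 in 5 and MCM7 and GINS3 in 4 each. The count of members lower was 8 at an adjusted p under 0.01 and 8 with the close pairs of libraries summed to 1 sample each, 9 with DESeq2, and 10 to 14 when each library was left out; the count higher was 10 to 13 over the same alternatives. The members' median log2 fold change of -0.04 was -0.0225 with total-count scaling, -0.0073 with upper-quartile scaling and -0.0708 to -0.0357 when each library was left out. The cause was not tested. Genes called among all tested ran from 5393 at the stricter threshold to 8130 without siTRIM28 replicate 1, and TRIM28 from -3.58 to -3.49.

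No pairing by replicate number was seen, with correlations of the deviations of 0.0523, -0.0118 and 0.0374. With 3 libraries a group, and siNC replicate 3 and siTRIM28 replicate 1 apart from theirs, a weak pairing could not be told from none. With the replicate number as a block, 14 members were lower and 12 higher, and 7910 genes were called in all; POLA2 and POLD2 were gained. At these depths the least abundant members (GINS2, GINS3 and POLE2, under 10 CPM) had standard errors from 0.143 to 0.178, so differences of that size could not be told from 0.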
